A study of Mus musculus with 12 samples.

Results

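The endothelin and vascular endothelial growth factor (VEGF) pathways were followed in the newborn brain through 10 genes of the 17550 symbols on the arrays. They are the endothelin ligand Edn1, the endothelin converting enzyme Ece1, the receptors Ednra and Ednrb, the VEGF ligands Vegfa and Pgf, the VEGF receptors Flt1 and Kdr, the coreceptor Nrp1 and the angiopoietin receptor Tek. Every main probeset that carried one of these symbols was taken, 199 of the 221417 main probesets with a symbol. Edn1 and Flt1 were selected on their higher values in KIS-ko brains. Their differences between genotypes are therefore given as a description without a test, and the comparison asks whether the other 8 genes, which were chosen for their place in the same pathways, moved with them in each litter.

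Endothelin-1 is made as a longer precursor, which the membrane protease encoded by Ece1 cleaves into the active peptide, and the peptide acts on the receptors encoded by Ednra and Ednrb. In blood vessels Ednra is known for contraction of the mural cells, and Ednrb in the brain is best known from astrocytes and radial glia. VEGF-A, made largely by neural cells of the growing brain, acts on endothelial cells through the receptor tyrosine kinase encoded by Kdr, with neuropilin 1 as a coreceptor. The Flt1 product binds VEGF-A tightly but signals weakly and also exists as a soluble decoy, and placental growth factor, the product of Pgf, binds Flt1 but not Kdr. Tek encodes Tie2, the endothelial receptor for angiopoietins.

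The arrays compared 6 wildtype (KIS +/+) with 6 KIS-ko (KIS -/-) newborn female mice, with no treatment, as pairs of littermates from 6 litters. KIS is a kinase of splicing factors that Uhmk1 encodes, the deleted allele was inherited and so is not limited to a cell type, and the line had been backcrossed to C57BL6/N. Each whole brain was hybridized to 1 Affymetrix exon array, on which the short probes of 1 exon or part of an exon form a probeset. In such bulk tissue fewer cells of a type and less RNA per cell cannot be told apart. Each gene was given the average of log2(signal + 16) across its probesets as its value, and a difference is always KIS-ko minus wildtype littermate on that log2 scale, which understates changes of dim genes.

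To show the 5′ ends of both selected genes, the 250 bases before the first base of their RefSeq transcripts are printed below (assembly GRCm38.p6, 5′ to 3′ along the gene's own strand), with the letters of any motif searched in capitals. The Edn1 promoter is at chr13:42301226-42301475 on the plus strand and that of Flt1 at chr5:147726012-147726261 on the minus strand.
Edn1: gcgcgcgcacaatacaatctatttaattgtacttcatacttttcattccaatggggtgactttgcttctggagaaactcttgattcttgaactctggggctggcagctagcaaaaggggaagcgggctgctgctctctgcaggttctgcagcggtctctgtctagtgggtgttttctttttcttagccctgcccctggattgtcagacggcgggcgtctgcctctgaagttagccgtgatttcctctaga
Flt1: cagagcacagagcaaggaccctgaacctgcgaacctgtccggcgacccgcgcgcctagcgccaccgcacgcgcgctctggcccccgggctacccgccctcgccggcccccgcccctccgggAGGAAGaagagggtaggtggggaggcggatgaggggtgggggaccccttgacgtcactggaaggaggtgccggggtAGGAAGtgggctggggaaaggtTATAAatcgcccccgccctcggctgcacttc
The motifs searched were TATAA on the gene's own strand, and on both strands ACGTG (the core of the hypoxia response element), AGATAA (the letters of the GATA family of factors), TGANTCA (AP-1) and AGGAAG (ETS factors, a family that is prominent in endothelium). They were present in 16%, 16.6%, 9.99%, 6.75% and 29.5%, respectively, of 32851 RefSeq promoters of the same length. The Flt1 promoter held TATAA at -31 and AGGAAG at -129 and -53, counted back from the transcript start, and the Edn1 promoter held none of the 5, which says only that these letters are not in this window. All 10 genes were matched to a RefSeq promoter. Among the other 8, AGGAAG occurred at 2 places before Ednra and at -91 before Nrp1, AGATAA at -182 before the first of the 2 Vegfa promoters, and ACGTG at -211 before the second Vegfa promoter and in 1 of the 4 Ece1 promoters. The G and C content was 50.4% before Edn1 and 70.4% before Flt1. The primers that the study designed for Edn1 mRNA, shown because they mark the part of the transcript covered by its own Q-PCR, lie in exon 3 and across the boundary of exon 3 and exon 4.
Edn1 forward primer: aaggccacagaccaggcagttaga
Edn1 reverse primer: tggtactttgggccctgagttcttt

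The array data set the limits of what could be seen. Of the 199 probesets 196 passed the filter on relative standard deviation, and those rejected were 2 of Pgf and 1 of Vegfa. Edn1 kept all 7 of its probesets, listed on chromosome 13 from 42396848 to 42402623 (probeset positions are those of the authors' table, whose build is not stated). Their mean signals ran from 89.4 to 270.5, so that 5 of 7 exceeded the median of 5222 intron controls (114.3), which stand for background, and 0 exceeded their 95th percentile (713.3). Pgf, with 7 probesets kept, was equally close to the controls, with 6 above their median and 0 above their 95th percentile. Flt1 had 33 probesets on chromosome 5 from 148375808 to 148537554, of which 12 were above that percentile and all 33 above the median. Of the other genes, 17 of 21 probesets of Ece1, 7 of 12 of Ednra, 15 of 17 of Ednrb, 10 of 15 of Vegfa, 15 of 33 of Kdr, 20 of 22 of Nrp1 and 4 of 29 of Tek were above the 95th percentile. Medians of the arrays ranged from 459.9 to 525.9, and the KIS-ko array had the lower median in every litter but litter 4. Uhmk1, the targeted gene, differed by -2.11 (standard error 0.068, limma adjusted p = 2.91e-07) and was lower in 6 of 6 litters. Over all 17279 genes tested, the median difference was -0.036 and 30.2% of genes were higher in KIS-ko brains, so values are also given after each array was centred on its own median, which moved the median difference to 0.02 and the share of higher genes to 62.2%.

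Edn1 was higher in the KIS-ko brain of every litter. In litters 1 to 6 the wildtype values were 7.51, 7.29, 7.16, 7.49, 7.3 and 7.61, and the KIS-ko values were 7.96, 7.44, 7.49, 7.98, 7.49 and 7.66. The groups overlapped, since only the KIS-ko brains of litters 1, 4 and 6 lay above all wildtype brains. The mean difference was 0.28 ± 0.177 (SD, n = 6 litters), widest in litters 4 and 1, with 0.48 and 0.46, and narrowest in litter 6, with 0.04. Centring the arrays drew the litters closer together, to 0.33 ± 0.12, with litter 6 at 0.21. By the paired ratio weighted over probesets that the study's methods describe, Edn1 was 1.28 ± 0.118-fold (SD over 6 pairs), from 1.14 to 1.44. A difference above 0 in 6 of 6 litters was found for 0.92% of all genes and a difference below 0 in 6 of 6 for 1.6%, and since Edn1 was selected on this contrast nothing is read from its place among them.

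All 7 Edn1 probesets were higher, by 0.18 to 0.39. The probeset at 42398929 to 42399043 had the widest difference, 0.39 (standard error 0.079), and was one of 3 that were higher in all 6 litters. The 3 probesets at the 5′ end differed by 0.33 on average and were together higher in every litter, from 0.11 in litter 5 to 0.57 in litter 1. The 3 at the 3′ end differed by 0.25 on average and were lower in litters 2 and 6, by -0.11 and -0.15. With the filter on relative standard deviation at 0.2 only 2 Edn1 probesets were left, and the difference was then 0.32.

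The other endothelin genes did not pass the test. Ece1, the converting enzyme, ranged from 9.93 to 10.25 in wildtype (median 10.07) and from 9.88 to 10.13 in KIS-ko brains (median 10.04). These ranges overlapped, and the difference of -0.04 (standard error 0.059, 95% interval -0.18 to 0.09) had an adjusted p of 0.786 from limma over all genes. It was higher in litters 3 and 4 and lower in the other 4. Of all genes, 0.00579% passed the adjusted threshold of 0.05, which Uhmk1 alone did. Without adjustment, 1.82% of genes were higher and 4.34% lower at that threshold, and 0 of the 8 genes were among either.

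Ednra, the receptor of vascular smooth muscle, had the lowest p of the 8 genes, with a mean difference below 0. The wildtype brains of litters 1 to 6 had 9.42, 9.48, 9.41, 9.24, 9.3 and 9.53, and their KIS-ko littermates 9.41, 9.09, 9.36, 9.32, 9.21 and 9.25. The KIS-ko brains of litters 2 and 5 lay below all wildtype brains, and the other 4 were within the wildtype range. The difference of -0.12 (standard error 0.066, 95% interval -0.27 to 0.02) had an unadjusted p of 0.0919 and an adjusted p of 0.685 in limma, and it was lower in 5 of 6 litters. Without litter 4, the only one in which Ednra was higher, it was -0.16, with an unadjusted p of 0.0335 and an adjusted p of 0.193 in limma. In that setting 3913 of all genes were under the unadjusted threshold, against 1065 with all litters. Without litter 2 the difference was -0.069, and after centring it was -0.07 (limma adjusted p = 0.742).

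Ednrb had a narrow spread, from 10.85 to 10.97 in wildtype and from 10.72 to 10.97 in KIS-ko brains. The lowest KIS-ko brains were those of litters 2 and 6, and the rest lay within the wildtype range or at its upper edge. Its difference was -0.04 (standard error 0.055, 95% interval -0.17 to 0.08, limma adjusted p = 0.773), higher in 3 of 6 litters. For Ece1 and Ednrb centring turned the sign, to 0.012 in each. With 1 litter left out Ece1 ranged from -0.09 (without litter 4) to -0.015 (without litter 6), and Ednrb from -0.065 (without litter 3) to -0.002 (without litter 2).

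**Figure D1:**
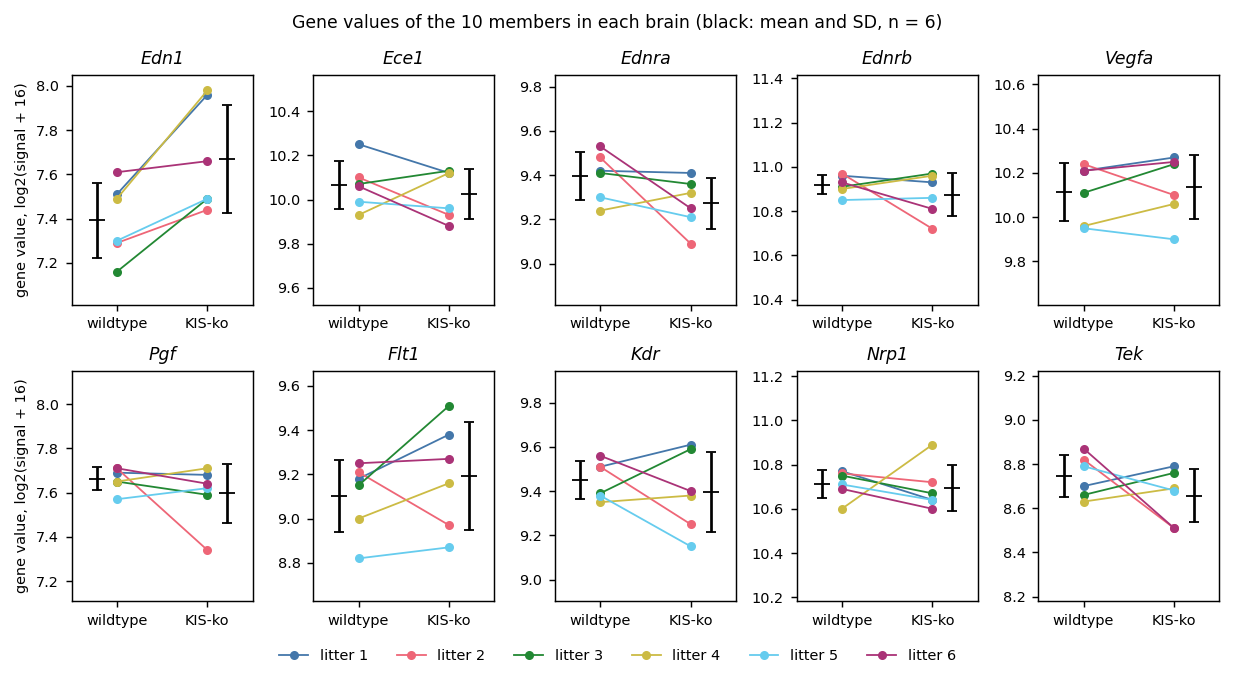
Gene values, log2(signal + 16), of the 10 genes in each wildtype and KIS-ko brain. Lines join littermates, and black marks give the mean and SD (n = 6). All panels span the same number of log2 units. The lines of Edn1 rise in 6 of 6 litters and those of Flt1 in 5 of 6, and those of the other genes run in both directions.

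Flt1 was higher in KIS-ko brains on average, with litters that differed widely. In litters 1 to 6 the wildtype values were 9.18, 9.21, 9.15, 9.0, 8.82 and 9.25, and the KIS-ko values were 9.38, 8.97, 9.51, 9.16, 8.87 and 9.27. The KIS-ko brains of litters 1, 3 and 6 lay above all wildtype brains, and that of litter 2 was below its littermate. The mean difference was 0.09 ± 0.205 (SD, n = 6 litters), with 0.36 in litter 3, 0.2 in litter 1 and -0.24 in litter 2, so that its SD was more than its mean. Leaving out litter 3 gave 0.04 and leaving out litter 2 gave 0.16. Centred values were 0.15 ± 0.173, still higher in 5 of 6 litters, and the weighted paired ratio of the study was 1.1 ± 0.139, from 0.883 to 1.3.

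Along the gene, 30 of 33 Flt1 probesets were higher, with a median of 0.1. The 16 probesets at the 3′ end were all higher, by 0.12 on average. Of the 16 at the 5′ end 13 were higher, by 0.06 on average, and the first probeset, at 148537313 to 148537554, had the lowest value of the gene, -0.11 (standard error 0.124). Both ends moved together in most litters. In litter 3 they differed by 0.38 and 0.35 and in litter 2 by -0.25 each, while litter 6 had -0.09 at the 5′ end and 0.12 at the 3′ end. The probeset at 148511457 to 148511569 was the only one of Flt1 that was higher in all 6 litters, by 0.18 (standard error 0.066).

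Kdr, the main signalling receptor for VEGF-A, did not differ beyond its error. The wildtype brains had 9.51, 9.51, 9.39, 9.35, 9.38 and 9.56 in litters 1 to 6, and the KIS-ko brains 9.61, 9.25, 9.59, 9.38, 9.15 and 9.4. The KIS-ko brains of litters 1 and 3 lay above every wildtype brain, and those of litters 2 and 5 below every wildtype brain. The difference was -0.05 (standard error 0.068, 95% interval -0.2 to 0.1, limma adjusted p = 0.78), with 3 litters higher and 3 lower, and it was 0.004 after centring. It was -0.102 without litter 3, -0.082 without litter 1, and -0.012, -0.017 and -0.029 without litters 2, 5 and 6.

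The ligands of these receptors were near 0 as well. Vegfa ranged from 9.95 to 10.24 in wildtype (median 10.16) and from 9.9 to 10.27 in KIS-ko brains (median 10.17), with a difference of 0.02 (standard error 0.051, 95% interval -0.09 to 0.14, limma adjusted p = 0.867). It was the one gene of the 8 with a difference above 0, higher in 4 of 6 litters, and with 1 litter left out it ranged from 0.001 (without litter 3) to 0.057 (without litter 2). It was 0.079 after centring, with 3 of 6 litters higher, and 0.089 with the median over probesets. Pgf, which binds Flt1 and not Kdr, ranged from 7.57 to 7.71 in wildtype (median 7.67) and from 7.34 to 7.71 in KIS-ko brains (median 7.63). The KIS-ko brain of litter 2 was the only one below all wildtype brains, and the difference of -0.07 (standard error 0.062, 95% interval -0.2 to 0.07) had an adjusted p of 0.719 in limma. The difference was -0.011 after centring, -0.006 without litter 2, -0.005 without the filter on relative standard deviation and -0.128 with its limit at 0.2. The Pgf probesets are as dim as described above.

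Nrp1, the coreceptor that VEGF shares with semaphorins, was lower in 5 of 6 litters, by -0.13 to -0.04, and 0.29 higher in litter 4. Values were 10.6 to 10.77 in wildtype and 10.6 to 10.89 in KIS-ko brains, and the difference was -0.02 (standard error 0.061, 95% interval -0.16 to 0.11, limma adjusted p = 0.89). Without litter 4 it was -0.09. After centring it was 0.032 with 3 of 6 litters higher, so no direction can be given. Tek ranged from 8.63 to 8.87 in wildtype (median 8.75) and from 8.51 to 8.79 in KIS-ko brains (median 8.68). The KIS-ko brains of litters 2 and 6 were below all wildtype brains, at 8.51 each, and the other 4 lay within the wildtype range. The difference of -0.09 (standard error 0.071, 95% interval -0.25 to 0.07) had an adjusted p of 0.699 in limma, with 3 litters higher and 3 lower. With 1 litter left out it ranged from -0.128 (without litter 3) to -0.037 (without litter 6), and after centring it was -0.035, with 2 of 6 litters higher.

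As a group the 8 genes lay close to all other genes. Their median difference was -0.048 against -0.036 over all genes, with 1 higher and 7 lower. After centring, 5 were higher and 3 lower, with a median of 0.008 against 0.02. By the weighted paired ratio of the study, Vegfa was 1.03 and Nrp1 1.01. Ece1 was 0.999, Kdr 0.983, Ednrb 0.98, Pgf 0.978, Tek 0.962 and Ednra 0.93, so the split depends on the measure. The 95% intervals above, each for 1 gene and for the arrays as deposited, lay between -0.27 and 0.14. They are not a joint bound and were not taken for the centred arrays.

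**Figure D2:**
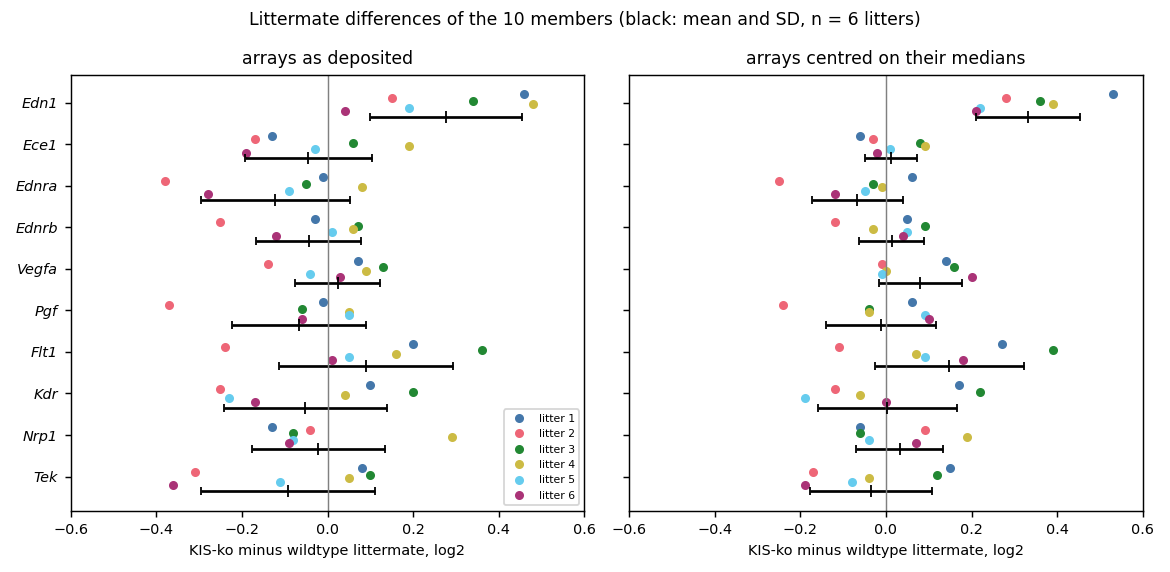
KIS-ko minus wildtype differences (log2) of the 10 genes in each of 6 litters, with the arrays as deposited (left) and centred on their medians (right). Points are litters, and black lines give the mean and SD. Edn1 lies right of 0 in every litter in both panels, while litters 2 and 6 lie to the left for most other genes on the left panel.

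Single probesets of the 8 genes were tested in the same way. Of their 156 probesets 45 were higher and 111 lower, and over all probesets 33.8% were higher. The adjusted threshold was passed by 0 of the 156 in limma (lowest adjusted p 0.738), against 0.00487% of all probesets. Without adjustment, 0 of the 156 were higher and 7 lower (4.49%), where 1.91% of all probesets were higher and 4.72% lower. Of those 7, 3 were in Ednra, 2 in Kdr and 1 each in Ednrb and Tek. The widest was in Ednrb at 104220096 to 104220121 on chromosome 14, with -0.33 (standard error 0.107, limma adjusted p = 0.742), and the one of lowest p was in Kdr at 76370436 to 76370481 on chromosome 5, with -0.31 (standard error 0.093, limma adjusted p = 0.738). Both were lower in all 6 litters. In Ednra 11 of 12 probesets were lower, in Tek 25 of 29, in Kdr 24 of 33, in Ednrb 13 of 17 and in Pgf 6 of 7. Ece1, with 12 of 21, Nrp1, with 13 of 22, and Vegfa, with 7 of 15, were more evenly divided.

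**Figure D3:**
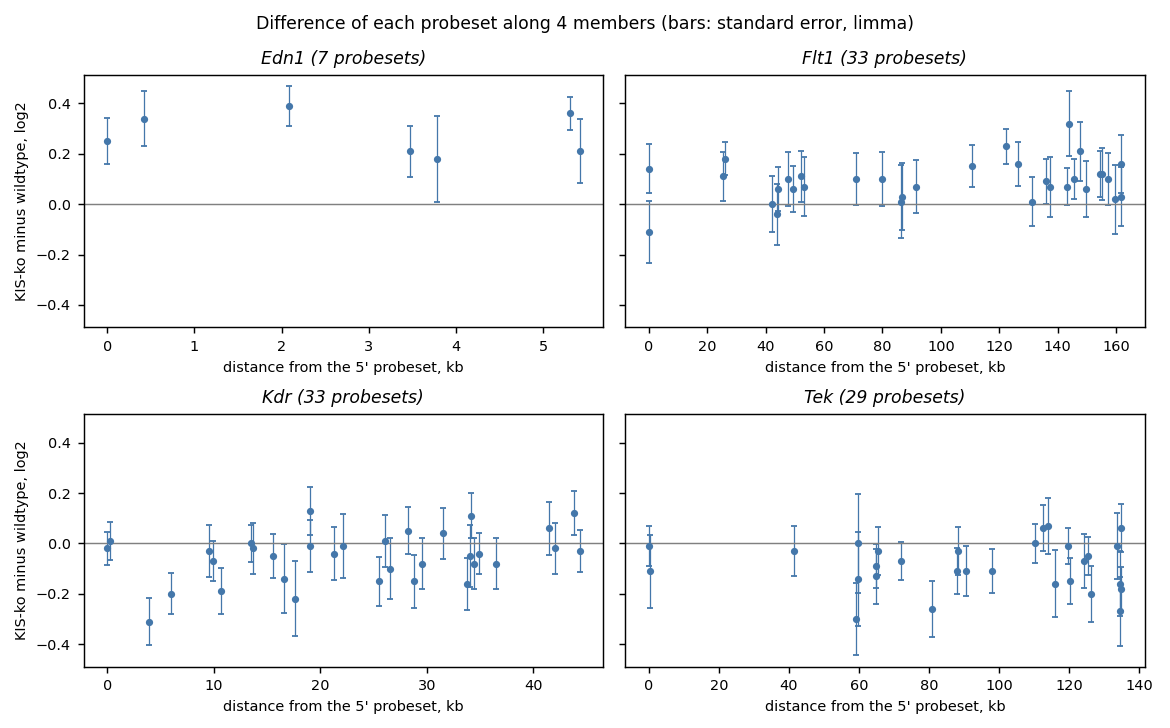
KIS-ko minus wildtype difference (log2) of each probeset kept, against its distance in kb from the 5′ probeset of Edn1, Flt1, Kdr and Tek. Bars are standard errors from limma. The Edn1 points all lie above 0, 30 of 33 Flt1 points do, and most points of Kdr and Tek lie below.

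The number of genes that were higher differed between litters. Of the 8 genes not selected on this contrast, 3, 0, 5, 8, 2 and 1 were higher in the KIS-ko brains of litters 1 to 6. With Edn1 and Flt1, which were selected on higher values, the counts were 5, 1, 7, 10, 4 and 3 of 10. The whole arrays moved in part with the counts of the 8, since 35.3%, 30.9%, 51.0%, 69.7%, 33.9% and 29.6% of all genes were higher in litters 1 to 6. Litter 6 had the lowest share of all genes, and litter 2 the fewest of the 8. The log2 ratio of the array medians was 0.098 in litter 4 and from -0.171 to -0.028 in the other 5. Centred on the array medians, 6, 1, 5, 2, 3 and 4 of the 8 genes were higher in litters 1 to 6, beside 58.3%, 63.0%, 59.5%, 42.6%, 44.7% and 62.6% of all genes, so that the high count of litter 4 was lost and the low count of litter 2 was not.

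To ask whether receptors and ligands followed litter by litter, the differences of Edn1 and Flt1 were correlated with those of their partners over the 6 litters, in 9 relations. For Flt1 and Vegfa Pearson's r was 0.936 (exact permutation p = 0.00694, adjusted over the 9 relations 0.05; Spearman's rho 0.886, exact p = 0.0333, adjusted 0.075). For Flt1 and Kdr r was 0.899 (exact permutation p = 0.0111, adjusted 0.05; rho 0.943, exact p = 0.0167, adjusted 0.05). Litters 1, 3 and 4, in which Flt1 was 0.16 or more above the wildtype littermate, were also those in which Kdr was higher. For Flt1 and Tek r was 0.837 (exact permutation p = 0.0208, adjusted 0.0625; rho 0.943, exact p = 0.0167, adjusted 0.05), and for Edn1 and Ednra r was 0.863 (exact permutation p = 0.0278, adjusted 0.0625; rho 0.943, exact p = 0.0167, adjusted 0.05). None of the 9 was under the adjusted threshold of 0.05. By Pearson's r 2 reached it exactly (Flt1 with Vegfa and with Kdr), and by Spearman's rho 3 did (Flt1 with Kdr and with Tek, Edn1 with Ednra). Without the 2 litters farthest from the median, r was 0.66 for Vegfa, 0.941 for Kdr and 0.937 for Tek with Flt1 (litters 2 and 3 left out), and 0.767 for Ednra with Edn1 (litters 4 and 6 left out).

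The other relations were weaker. With Edn1, Ece1 had an r of 0.671 (exact permutation p = 0.153, adjusted 0.197; rho 0.829, exact p = 0.0583, adjusted 0.105), which was 0.15 without litters 4 and 6. With 1 litter left out it was lowest without litter 4, at 0.438, and highest without litter 1, at 0.971, so that single litters set its value. Ednrb had 0.661 (exact permutation p = 0.158, adjusted 0.197; rho 0.657, exact p = 0.175, adjusted 0.225; 0.544 without these litters). With Flt1, Pgf had 0.702 (exact permutation p = 0.168, adjusted 0.197; rho 0.486, exact p = 0.356, adjusted 0.4; 0.342 without litters 2 and 3) and Nrp1 0.045 (exact permutation p = 0.928, adjusted 0.928; rho -0.314, exact p = 0.564, adjusted 0.564; 0.306 without them). Edn1 and Flt1 themselves had an r of 0.629 (exact permutation p = 0.175, adjusted 0.197; rho 0.714, exact p = 0.136, adjusted 0.204; 0.753 without litters 4 and 6).

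These relations share the shift of each whole array. All 9 had an r above 0 on the deposited arrays. After centring, r was 0.859 for Flt1 and Kdr (exact permutation p = 0.0278, adjusted 0.25), 0.775 for Flt1 and Vegfa, 0.746 for Flt1 and Tek and 0.672 for Edn1 and Ednra. It fell to 0.121 for Edn1 and Ednrb, to 0.015 for Edn1 and Ece1 and to 0.399 for Edn1 and Flt1, was 0.557 for Flt1 and Pgf, and turned to -0.633 for Flt1 and Nrp1. In the deposited arrays 4 relations, those of Flt1 with Vegfa, Kdr and Tek and of Edn1 with Ednra, passed the adjusted threshold when litter 6 was left out, and the same 4 passed with probesets that match 1 place only. How many of all genes follow Flt1 or Edn1 this closely over the litters was not tested, so nothing particular to the pathways is read from these passes. In the ranking over 12 arrays below, Kdr had rank 144, Vegfa 304 and Tek 6052 for Flt1, and Ednra 6495 for Edn1. The relation of Edn1 and Ednra turned to an r of -0.558 with the relative standard deviation limit at 0.2, where 2 Edn1 probesets were left, and to -0.382 with the median over probesets.

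**Figure D4:**
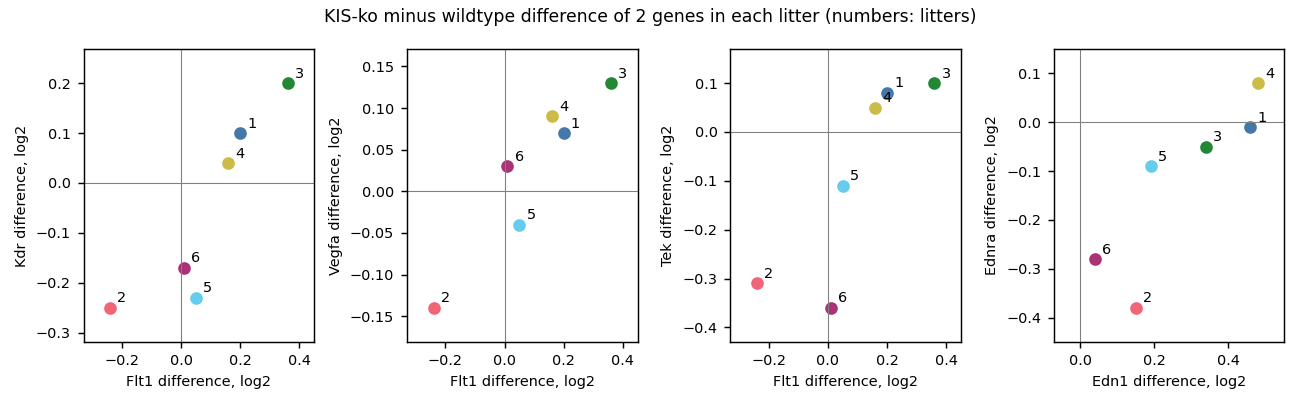
KIS-ko minus wildtype difference (log2) of Flt1 against those of Kdr, Vegfa and Tek and of Edn1 against that of Ednra, with 1 point per litter, numbered. Litter 3 is at the upper right and litter 2 at the lower left of the 3 Flt1 panels, and in the Ednra panel litters 6 and 2 are lowest.

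Endothelial and mural markers were followed for the cells that carry most of these receptors. Pecam1, an adhesion molecule of endothelium, had 9.13 ± 0.143 in wildtype and 9.09 ± 0.106 in KIS-ko brains (SD, n = 6; limma adjusted p = 0.85), Cdh5, the endothelial cadherin, differed by -0.04 (adjusted p = 0.765) and Pdgfrb, a receptor of mural cells, by -0.01 (adjusted p = 0.916). Of 20 endothelial markers 6 were higher and 14 lower, where 30.2% of all genes were higher. Their median was -0.038 against -0.036 over all genes, and 0 were past either threshold. After centring 11 of the 20 were higher (median 0.018), against 62.2% of all genes (median 0.02). The mean level of the list ranged from 9.0 to 9.23 in wildtype and from 9.0 to 9.15 in KIS-ko brains. The Flt1 difference minus the mean difference of these 20 genes was 0.21, -0.1, 0.3, 0.04, 0.1 and 0.17 in litters 1 to 6, a mean of 0.12 ± 0.141 with 5 of 6 litters above 0. Flt1 was selected on its higher values, so this remainder leans above 0 by that choice and nothing is read from it. Endothelial markers were themselves higher in litters 3 and 4 and lower in the other 4. Of 11 mural markers 3 were higher and 8 lower (median -0.017, mean level 9.03 to 9.38 in wildtype and 9.08 to 9.31 in KIS-ko brains). After centring 8 of the 11 were higher, where the share of all genes that were higher went from 30.2% to 62.2%. Rgs5, a pericyte gene named after its value was seen, was the 1 mural marker of 11 under the unadjusted threshold, with -0.16 (limma adjusted p = 0.685), where 4.34% of all genes were lower and 1.82% higher at that threshold.

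Markers of other cells of the brain had small differences. Of 10 genes of astrocytes and radial glia, the cells best known for Ednrb in brain, 10 were lower, with a median of -0.071 and a mean level from 10.89 to 11.07 in wildtype and from 10.81 to 10.98 in KIS-ko brains. Gfap alone of these 10 was under the unadjusted threshold, as were 4.34% of all genes in that direction, with -0.27 (limma adjusted p = 0.685), and it is named here after its value was seen. The median was -0.035 for 7 neuronal markers (1 higher), -0.06 for 8 of meninges (2 higher), -0.015 for 9 of microglia (2 higher), 0.001 for 6 of choroid plexus (3 higher) and 0.024 for 6 of erythroid cells (5 higher). Hbb-bh1, an embryonic globin gene whose median probeset signal (59.7) was below the median intron control (114.3), is named after its value was seen. It was the 1 erythroid gene of 6 under the unadjusted threshold, with 0.21 (limma adjusted p = 0.685), as were 1.82% of all genes in that direction. These counts depend on the scaling, since after centring 3 of 10 markers of astrocytes and radial glia, 6 of 7 of neurons, 4 of 8 of meninges, 8 of 9 of microglia, 5 of 6 of choroid plexus and 6 of 6 of erythroid cells were higher, against 62.2% of all genes. Their part in the values of Edn1 and Flt1 was not tested.

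Of 46 further genes of the endothelin, VEGF and angiopoietin, sprouting and hypoxia lists, 12 were higher and 34 lower (26.1% higher, against 30.2% of all genes), with a median of -0.044. After centring 25 of the 46 were higher, against 62.2% of all genes. Of the 46, 0 passed the adjusted threshold (lowest adjusted p 0.685 in limma). Without adjustment 0 were higher and 2 lower (4.35%), where 1.82% of all genes were higher and 4.34% lower, so that the share lower was that of all genes. Angpt1, the agonist of Tek, had 8.04 ± 0.19 in wildtype and 7.86 ± 0.241 in KIS-ko brains, a difference of -0.18 (standard error 0.051, limma adjusted p = 0.685), lower in 6 of 6 litters. Aplnr, the apelin receptor of sprouting endothelium, had 10.38 ± 0.087 and 10.17 ± 0.092, a difference of -0.21 (standard error 0.06, limma adjusted p = 0.685), lower in 5 of 6 litters. Both are named because they were the 2 under the unadjusted threshold. Over the 17 alternatives Angpt1 was between -0.209 and -0.12 and Aplnr between -0.262 and -0.124. Without litter 4, 11 of these 46 genes were under the unadjusted threshold (23.9%), a share close to the 22.6% of all genes in that setting.

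By list, the 7 other endothelin genes had 2 higher and 5 lower (median -0.058), the 13 VEGF and angiopoietin genes 3 and 10 (median -0.045), the 11 sprouting genes 4 and 7 (median -0.057) and the 15 hypoxia-inducible genes 3 and 12 (median -0.031). After centring, 3, 7, 5 and 10 genes of these lists, in the same order, were higher, where the share of all genes that were higher went from 30.2% to 62.2%. Adm, a vasodilator peptide whose gene hypoxia induces, differed by 0.11 (standard error 0.065, limma adjusted p = 0.685) and was higher in 4 of 6 litters. The median signal of its 3 probesets, 91.0, was below the median intron control (114.3). Edn3, the other main ligand of Ednrb, differed by -0.08 and Ece2, a second converting enzyme, by -0.11, lower in 5 and in 6 of 6 litters (limma adjusted p = 0.685 for each). These 3 were picked after their values were seen.

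Last, genes were ranked by how closely their values followed Edn1 or Flt1 over the 12 arrays, with the array median and the genotype mean removed, as a description. Edn1 was followed most closely by Dusp1 (r = 0.917), an immediate early phosphatase gene, by Tnfsf9 (0.902), Leprotl1 (0.896), 2310035K24Rik (0.88) and Tbc1d24 (0.877). The differences of these 5 between genotypes were from -0.11 to 0.06. Flt1 was followed by Atp2b4 (0.96), a plasma membrane calcium pump, Osgep (0.949), Tex2 (0.947), Adamtsl1 (0.938) and Aldh9a1 (0.936). Of the other 9 of the 10 genes, Kdr (0.837, rank 144 among the genes tested) and Vegfa (0.793, rank 304) were closest to Flt1. Tek (0.011) and Edn1 (-0.034) were near 0 by this measure, and Nrp1 was below it (-0.661). For Edn1, r was 0.003 with Ednra, -0.163 with Ece1 and -0.063 with Ednrb. With arrays centred, the litter differences had an r of 0.672 for Edn1 and Ednra and 0.746 for Flt1 and Tek. On the deposited arrays these were 0.863 and 0.837. The points share the arrays, their scaling and the litters.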

How the data were processed

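Total RNA from 12 whole brains was measured on 12 arrays, 6 per genotype. The authors used the Affymetrix Expression Console to quantile-normalize exon-level data and to estimate probeset signals by PLIER, and deposited a linear intensity (PLIER signal) for each of 229581 probesets and 12 arrays. Which genome build its positions follow is not given in the sources used here. Only main probesets that carry a symbol entered, and following the study's methods 15948 of them were rejected because their SD exceeded 0.4 of their mean in at least 1 genotype (relative standard deviation), which left 205469 probesets of 17279 genes. Precision is limited by the number of arrays and, for dim probesets, by background.

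Gene values, means over probesets of log2(signal + 16), and single probesets were fitted with limma 3.58.1 in R 4.3.3, blocking on litter, with eBayes variances. P-values were adjusted by Benjamini-Hochberg over all genes or all probesets, with a threshold of 0.05. Correlations over litters were tested by exact permutation of the pairings, two-sided, in Python 3.11.15 with numpy 2.4.6, with ranks from scipy 1.17.1. Tables were handled with pandas 2.3.3, and plots were drawn with matplotlib 3.10.9. The fits were tested on simulated data. The pairing comes from the labels, which give each pair 1 litter. The correlation of littermates' deviations from their genotype means was between -0.114 and 0.473 (mean 0.1, with 3 of 6 pairs above 0.1). Between other litters, which form more pairs, it was -0.425 to 0.282 (mean -0.0187, with 13 pairs above 0.1), so that these ranges overlapped.

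The 10 genes and the lists were chosen with earlier results of these data known. The text names every one of the 10 genes, the targeted gene, list genes of the pathways at an unadjusted p under 0.05, the markers Pecam1, Cdh5 and Pdgfrb, and the 5 genes closest to Edn1 and to Flt1. Outside this rule, Rgs5, Gfap, Hbb-bh1, Adm, Edn3 and Ece2 were chosen after their values were seen. Of the list genes, Ldha, Rbfox3, Slc4a5 and Ahsp were not matched. Alternatives covered the pairing (litter not in the fit), the pseudocount (1 or 64), the relative standard deviation limit (none or 0.2), the probesets used (none at or under the median intron control, or only those matching 1 place), the scaling (each array centred on its median, or a second quantile normalization), the summary (median in place of mean), trended and robust moderation, and the omission of each litter.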

Additional observations from a re-analysis of the deposited data

Results flagged for a closer look

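Among 36 groups of 6 values searched, the wildtype values, the KIS-ko values and the litter differences of 12 genes, 3 had an end value whose gap to its neighbour, as a share of the whole range of the group, was above the critical value of Dixon's test at 95%, which chance exceeds in about 0.05 of groups. The KIS-ko brain of litter 2 had the lowest Pgf value, 7.34, with a gap of 0.694 of the range. The Pgf difference of the same litter, -0.37, lay apart from the other 5 by 0.721 of the range. The Nrp1 difference of litter 4, 0.29, lay above the other 5 by 0.791 of the range. Litter 4 was also the only litter whose KIS-ko array had the higher median.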

How the results depend on the processing

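Edn1 stayed above 0 in all 17 alternatives, from 0.221 to 0.333, and so did Flt1, from 0.037 to 0.158. Without the replicate block, that is with the litter pairing left out of the fit, 0 of the 8 other genes were under the unadjusted threshold (lowest p 0.0752) and 1 of the 46 further pathway genes was, against 2. That count was 4 after quantile normalization again (8.7%, against 7.05% of all genes), 1 with the median over probesets, and between 2 and 11 with 1 litter left out, 11 without litter 4 (23.9%, against 22.6% of all genes). Of the 8 genes, 0 to 1 were under it with 1 litter left out, and 3 in place of 7 were lower after centring. Signs turned after centring for Ece1 (0.012), Ednrb (0.012), Kdr (0.004) and Nrp1 (0.032), and for Nrp1 after quantile normalization (0.009) and with the median over probesets (0.008). Of the 9 relations, 4 passed with probesets matching 1 place only and 0 to 4 with 1 litter left out. The share of all genes that would pass in these settings was not tested. With the relative standard deviation at 0.2, r turned to -0.484 for Edn1 and Ece1, -0.558 for Edn1 and Ednra, -0.544 for Edn1 and Ednrb and -0.359 for Edn1 and Flt1, where Edn1 kept 2 probesets. With the median over probesets it was -0.616 for Ece1 and -0.382 for Ednra. For Flt1 and Nrp1 it was -0.633 after centring, -0.529 after quantile normalization and from -0.639 to 0.228 with 1 litter left out, and for Flt1 and Pgf from -0.273 to 0.906. The cause was not tested. Probesets near the intron controls limit what Edn1 and Pgf can show.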
